A study of Mus musculus with 2 samples.

Results

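The expression of 9 imprinted genes that act on growth was followed through the cell classes of the mouse eye at e13.5, a stage of mid gestation. The genes were *H19*, *Meg3*, *Peg3*, *Dlk1*, *Plagl1*, *Grb10*, *Peg10*, *Mest* and *Ndn*, chosen by name, and all 9 were found among the 31053 genes of the deposited count tables. One library came from *Myrf* fl/fl eye cups, the control, and one from *Rx>cre Myrf* fl/fl eye cups, the mutant. Each library pooled 3 eye cup samples, from which the cornea, lens and optic nerve had been cut away. The floxed allele of *Myrf*, a membrane-associated transcription factor, was carried by both genotypes. In the mutant, Cre recombinase from an *Rx* transgene acts in the lineage of the early eye field, which gives rise to the retina and the retinal pigment epithelium (RPE). Vessels, periocular mesenchyme and blood are outside that lineage.

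Genomic imprinting is the expression of a gene mainly from the copy inherited from one parent, set by DNA methylation laid down in the egg or the sperm. Many imprinted genes act on growth before birth: as a rule of thumb, genes read from the father's copy promote growth and genes read from the mother's copy restrain it. Imprinted genes lie in clusters that share one control region, such as *H19* with *Igf2*, or *Dlk1* with *Meg3*. The counts do not tell the parental copies apart, so what follows concerns the level of each transcript and not its imprinting.

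In the GENCODE annotation of the mouse genome (GRCm38, the assembly also called mm10), *H19* lay at chr7:142575529-142578143 on the minus strand, *Meg3* at chr12:109541001-109571726 on the plus strand and *Mest* at chr6:30723547-30748465 on the plus strand. *Dlk1* lay upstream of *Meg3*, at chr12:109452823-109463336 on the same strand. The *H19*, *Meg3* and *Mest* loci were of interest beyond their own transcripts because each is the host of microRNAs, short RNAs that pair with messages through their seed, bases 2 to 8. The mature sequences are given from RefSeq (GRCm38.p6) with the seed in capitals. Those of *H19* and *Meg3* lay within exons, and those of *Mest* within an intron. No 2 of the 7 shared a seed. The microRNAs themselves were not measured here.

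*H19*, miR-675-5p, chr7:142577112-142577133, minus strand: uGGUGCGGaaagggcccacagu
*H19*, miR-675-3p, chr7:142577078-142577099, minus strand: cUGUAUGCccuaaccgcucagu
*Meg3*, miR-1906, chr12:109544588-109544609, plus strand: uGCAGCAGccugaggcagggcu
*Meg3*, miR-770-5p, chr12:109563710-109563731, plus strand: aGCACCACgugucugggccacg
*Meg3*, miR-770-3p, chr12:109563744-109563765, plus strand: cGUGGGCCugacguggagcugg
*Mest*, miR-335-5p, chr6:30741314-30741336, plus strand: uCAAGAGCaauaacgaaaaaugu
*Mest*, miR-335-3p, chr6:30741354-30741375, plus strand: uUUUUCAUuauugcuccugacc

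*Plagl1* encodes a zinc finger factor that binds GC-rich sites, and ZFP57, another zinc finger protein, holds imprinting marks at a short hexamer. Both motifs were therefore looked for on either strand in the 250 bases before each start site of the members in the RefSeq promoter table (GRCm38.p6). The table held a promoter of 7 of the 9 members, all but *H19* and *Peg10*. The *Plagl1* core, GGGGCCCC, was found once, before *Peg3*, and in 0.889% of the 32851 promoters of the table. The ZFP57 hexamer, TGCCGC, was found before *Mest* (2 matches), *Plagl1* and *Meg3* (1 match each), and in 8.68% of all promoters. Some members had more than 1 start site, while that share counts single promoters. The *Mest* windows that start at chr6:30737800 and chr6:30737803 overlap and share their matches. Another *Mest* window (chr6:30733256-30733505) and another *Meg3* window (chr12:109545148-109545397) had no match. The *Peg3* and *Mest* windows are shown with the matches in capitals, each read 5′ to 3′ on the strand of its gene, so that a hexamer on the other strand reads GCGGCA. A match of letters is a description and does not show that a protein binds there.

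*Peg3*, chr7:6730420-6730669, minus strand: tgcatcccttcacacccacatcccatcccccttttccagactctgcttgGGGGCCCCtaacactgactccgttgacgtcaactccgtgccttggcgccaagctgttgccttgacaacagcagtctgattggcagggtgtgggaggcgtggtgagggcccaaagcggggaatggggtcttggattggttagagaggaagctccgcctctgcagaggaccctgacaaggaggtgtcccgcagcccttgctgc
*Mest*, chr6:30737800-30738049, plus strand: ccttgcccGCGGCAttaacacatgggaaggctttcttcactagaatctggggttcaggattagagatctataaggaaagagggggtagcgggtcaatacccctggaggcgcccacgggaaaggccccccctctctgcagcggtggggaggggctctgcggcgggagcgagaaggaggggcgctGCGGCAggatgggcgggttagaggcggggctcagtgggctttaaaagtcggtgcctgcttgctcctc

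The libraries held 6039 control and 6754 mutant barcodes with 63483835 and 75228861 unique molecular identifiers (UMIs, one per captured transcript), and after filters and removal of 51 and 74 doublets 5468 and 6300 cells were kept. The libraries shared 72 barcodes by sequence, 67 of them among kept cells. The cells fell into 28 clusters, which were formed without the members and without the other imprinted genes, and 21 clusters were named from marker genes into 14 classes, called X-like. The other 7 clusters, with 26.4% of control and 24.0% of mutant cells, stayed unnamed, and 4 of these were shallow, with medians of 744.0 to 1757 UMIs per cell. A level in CPM is the number of UMIs of the gene for every 1000000 UMIs counted in the class. Because each genotype had a single library, no replicate spread could be measured and no genotype difference was tested. Intervals in parentheses are at 95%, exact Poisson for a level, Clopper-Pearson for a share of cells and conditional binomial for a log2 ratio, and cover counting error only. As a check of the labels, *Myrf* was at 74.0 CPM (155 UMIs) in the control and 20.1 CPM (30 UMIs) in the mutant RPE-like cells. Whether the counted 3′ ends lie in the deleted part was not given in the sources used here.

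*H19*, a spliced RNA read from the mother's copy beside *Igf2*, was highest in endothelial-like cells, at 648 CPM (612 to 687) in the control library and 436 CPM (406 to 467) in the mutant library (144 and 148 cells). Among classes of at least 30 cells in both libraries, surface ectoderm-like cells followed with 362 and 399 CPM, and periocular mesenchyme-like cells with 329.9 and 298 CPM. The small muscle-like class (25 and 29 cells) had 407 and 386 CPM. In retinal progenitor-like cells *H19* was at 46.1 and 40.6 CPM, and in retinal ganglion cell-like cells it was at 18.6 and 9.94 CPM, the lowest of the 10 classes with at least 30 cells in both libraries. The intervals of the endothelial-like, surface ectoderm-like and periocular mesenchyme-like classes lay above those of every other class of that size in both libraries. Classes are called apart where the lower of the 2 library levels of one was above the higher of the next, and otherwise overlapping. Highest classes are named among these 10 classes, and smaller classes are given separately.

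*Meg3*, the noncoding RNA read from the mother's copy of the *Dlk1* domain, stood out in RPE-like cells, with 251 CPM (230.0 to 273) in the control library and 267 CPM (241 to 294) in the mutant library (255 and 154 cells). Periocular mesenchyme-like cells had 222 and 251 CPM, and these classes overlapped. All other classes of at least 30 cells lay lower. Amacrine or horizontal-like cells had 44.4 and 125 CPM, retinal ganglion cell-like cells 42.1 and 40.6 CPM and retinal progenitor-like cells 13.1 and 13.4 CPM. *Meg3* was thus higher in the amacrine or horizontal-like and ganglion cell-like neurons than in the progenitors. The small photoreceptor precursor-like class (29 and 30 cells) had 14.1 and 12.3 CPM, on 5 and 4 UMIs, near the progenitor level. In the small muscle-like class (25 and 29 cells) it was at 347 and 204 CPM.

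*Dlk1*, a transmembrane protein related to Notch ligands and read from the father's copy, was largely a transcript of mesenchyme and RPE. Periocular mesenchyme-like cells had 148 CPM (142 to 154) in the control library and 138 CPM (133 to 143) in the mutant library, and RPE-like cells 82.1 CPM (70.3 to 95.3) and 106 CPM (90.4 to 124). Each of the other 8 classes had at most 7.26 CPM, and these 8 overlapped along the order. Red blood cell-like cells, one of these 8, had 3.08 and 4.09 CPM. Muscle-like cells had 109 and 156 CPM.

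The RPE-like class was checked for mesenchyme, since *Meg3*, *Dlk1* and *Peg3* were all high in both. The 15 periocular mesenchyme markers summed to 148 and 201 CPM in control and mutant RPE-like cells, against 4241 and 4223 CPM in periocular mesenchyme-like cells. None of the 15 was at 0 in both libraries. Their part in the RPE-like levels of the 3 members was not tested. The 10 RPE markers summed to 14041 and 10109.7 CPM in the RPE-like class.

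*Peg3* and *Plagl1* encode zinc finger proteins of the father's copy. Among the 10 classes with at least 30 cells in both libraries, *Peg3* (chr7:6703892-6730431, minus strand) was highest in periocular mesenchyme-like cells. These had 214 CPM (207 to 221) in the control library and 206 CPM (199 to 212) in the mutant library. RPE-like cells followed with 127 and 101 CPM, and surface ectoderm-like cells with 72.2 and 59.6 CPM. Retinal progenitor-like cells had 45.7 and 44.5 CPM and retinal ganglion cell-like cells 10.8 and 9.13 CPM. The first 4 of these classes, with retinal progenitor-like the last of them, were apart from each other in both libraries. The small muscle-like class (25 and 29 cells) had more *Peg3* than any of them, at 301 and 249 CPM.

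*Plagl1* (chr10:13060504-13131694, plus strand), which also regulates other imprinted genes, had another order. It was highest in retinal progenitor-like cells, with 114 CPM (109 to 119) in the control library and 135 CPM (129 to 139.8) in the mutant library (1604 and 1679 cells), then in endothelial-like cells, with 93.2 and 104 CPM. In neurogenic precursor-like cells, the next step of retinal differentiation, *Plagl1* was at 32.5 and 29.2 CPM, and in retinal ganglion cell-like cells at 4.57 and 7.79 CPM. Amacrine or horizontal-like cells had 39.5 and 66.7 CPM. Periocular mesenchyme-like cells, where *Peg3* was highest among the larger classes, had 9.09 and 9.15 CPM.

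*Grb10* (chr11:11930508-12038683, minus strand), an adaptor protein that binds the insulin and insulin-like growth factor receptors and damps their signal, was broadly spread. Its highest class was neurogenic precursor-like, with 332 CPM (312 to 354) in the control library and 263 CPM (246 to 280.2) in the mutant library, which overlapped with retinal progenitor-like cells at 268 and 257 CPM. From periocular mesenchyme-like cells, at 225 and 195 CPM, down to surface ectoderm-like cells, at 116 and 124 CPM, neighbours in the order overlapped, and macrophage-like cells (42.3 and 19.7 CPM) and red blood cell-like cells (12.5 and 13.9 CPM) stood apart. The small Schwann or neural crest-like class (22 and 38 cells) had 535 and 390.5 CPM.

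*Peg10* (chr6:4747306-4760517, plus strand), a gene derived from a retrotransposon and needed for the placenta, had its highest level in endothelial-like cells. Endothelial-like cells had 138 CPM (121 to 156) in the control library and 156 CPM (138 to 175) in the mutant library, and the next class, periocular mesenchyme-like, had 15 and 12.1 CPM. The other 8 classes lay between 0 and 8.22 CPM. In red blood cell-like cells of the control no UMI of *Peg10* was counted, which allows up to 3 UMIs or 0.710 CPM.

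*Mest*, a hydrolase-like enzyme of the endoplasmic reticulum read from the father's copy, was also highest in endothelial-like cells, with 1617 CPM (1558 to 1676) in the control library and 1600.4 CPM (1543 to 1660.0) in the mutant library. Surface ectoderm-like cells had 896 and 727 CPM, RPE-like cells 528 and 675 CPM, retinal progenitor-like cells 493 and 453 CPM and periocular mesenchyme-like cells 305 and 229.5 CPM. It was far lower in later retinal classes, at 93.7 and 69.6 CPM in neurogenic precursor-like and 67.3 and 52.4 CPM in retinal ganglion cell-like cells. Each of the 10 classes was apart from the next in the order. The *Mest* locus overlaps *Copg2* on the other strand. Schwann or neural crest-like cells had 1209 and 1223 CPM.

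*Ndn* (chr7:62346569-62350262, plus strand) encodes necdin, a protein of the MAGE family known to restrain division in neurons, and was the one member with its highest level in neurons. Retinal ganglion cell-like cells had 455 CPM (432 to 479.7) in the control library and 458 CPM (436 to 479.8) in the mutant library (183 and 237 cells), and amacrine or horizontal-like cells 411 and 348 CPM. The small photoreceptor precursor-like class (29 and 30 cells) had 766 and 613 CPM. RPE-like cells had 303 and 274 CPM, retinal progenitor-like cells 229 and 232 CPM, periocular mesenchyme-like cells 144 and 173 CPM and endothelial-like cells 74.9 and 71.7 CPM. *Ndn* and *Mest* thus ran in opposite order from progenitor-like to ganglion cell-like cells in both libraries.

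**Figure D1:**
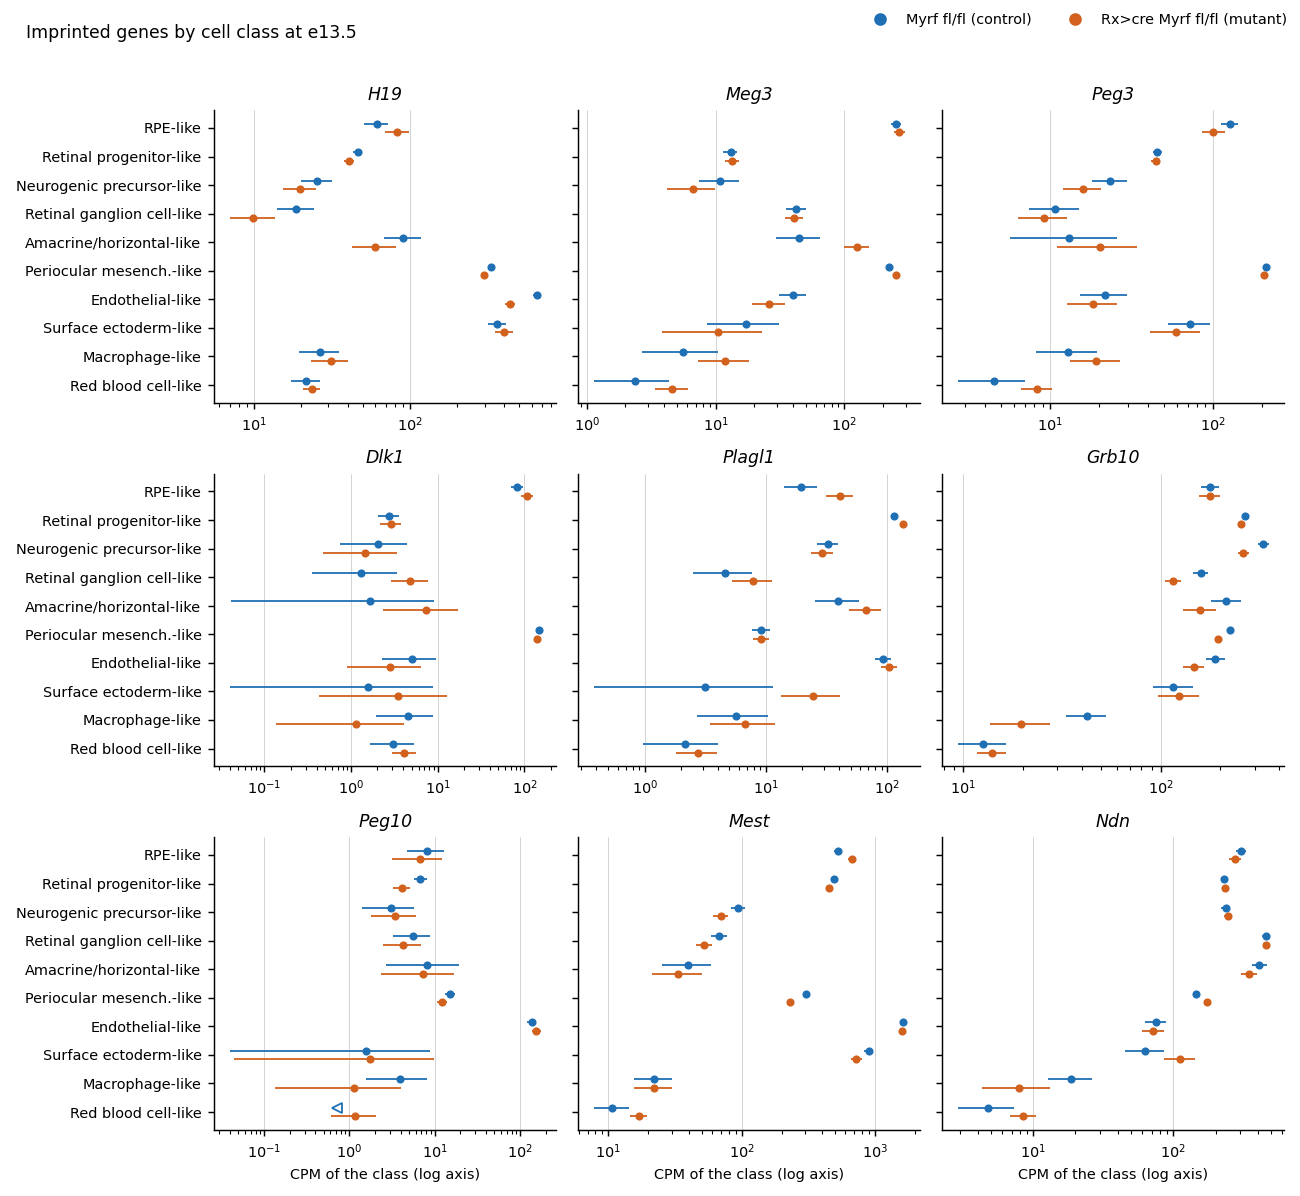
Level of each member in the 10 cell classes with at least 30 cells in both libraries, as CPM on a log axis that differs between panels; points are the control and mutant libraries, bars the 95% counting interval, and the open triangle a class with no UMI, drawn at the level of 3 UMIs. Among these 10 classes, each member has the same highest class in both libraries.

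Among the 10 classes with at least 30 cells in both libraries, all 9 members had the same highest class in both. In muscle-like cells, outside this count, *Meg3* exceeded its highest class in the control only and *Dlk1* in the mutant only. Over the 20 class and library sums the members did not follow one common pattern. Pearson's r of log2(CPM + 1) was 0.89 for *Grb10* with *Ndn*, 0.80 for *Meg3* with its neighbour *Dlk1*, 0.75 for *Peg3* with *Dlk1* and 0.74 for *H19* with *Mest*. It was -0.03 for *Dlk1* with *Plagl1* and 0.05 for *H19* with *Ndn*. These values are descriptions: the classes of a library share its preparation, and the libraries repeat the same classes. *Grb10* and *Ndn* were both lowest in macrophage-like and red blood cell-like cells. Retinal ganglion cell-like cells, the highest class of *Ndn*, ranked 7 of the 10 classes for *Grb10* by mean level. The part of the low classes in the r of *Grb10* with *Ndn* was not tested.

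Among 11909 genes with at least 100 UMIs in each library, the genes most like each member over these sums were named by the size of r. *Peg10* was closest to *Ramp2* (r = 0.92), *Clec14a* (r = 0.91) and *Tcf15* (r = 0.91). *Ramp2* and *Clec14a* are genes of blood vessels. *Dlk1* was closest to *Inmt* (r = 0.95), *Wif1* (r = 0.95) and *Olfml1* (r = 0.95), and *Peg3* to *Snhg18* (r = 0.96), *Sdc2* (r = 0.96) and *Cpxm1* (r = 0.95), where *Sdc2* encodes a heparan sulfate proteoglycan. *Mest* was closest to *Dcbld1* (r = 0.93), *Lrp4* (r = 0.92) and *Col18a1* (r = 0.91), and *H19* to *Plk2* (r = 0.94), *Arhgap29* (r = 0.94) and *Airn* (r = 0.93), where *Airn* is itself an imprinted noncoding RNA. *Ndn* was closest to *Apbb1* (r = 0.98), *Spa17* (r = 0.97) and *Mageh1* (r = 0.97), of which *Mageh1* encodes another MAGE protein. *Grb10* was closest to *Tead2* (r = 0.96), *Myh10* (r = 0.96) and *Rhobtb3* (r = 0.96), and *Meg3* to *Rev3l* (r = 0.90), *Dnm1* (r = 0.88) and *Cyth3* (r = 0.88). *Plagl1* had the lowest values, with *Wscd1* (r = 0.85), *Sik3* (r = 0.84) and *Prodh* (r = 0.79).

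Shares of cells were compared after thinning each cell to 3000 UMIs, since in the 10 larger classes median depths ran from 1694 UMIs in surface ectoderm-like to 22724 in red blood cell-like cells of the mutant. At that depth *Mest* was detected in 97.9% (92.7 to 99.7) of 97 control and 96.1% (90.3 to 98.9) of 102 mutant cells of the endothelial-like class, and *H19* in 66.0% (55.7 to 75.3) of 97 control and 71.6% (61.8 to 80.1) of 102 mutant cells of it. *Meg3* was detected in 44.4% (35.8 to 53.2) of 133 control and 50% (38.6 to 61.4) of 80 mutant cells of the RPE-like class, and *Dlk1* in 19.5% (13.2 to 27.3) of 133 control and 22.5% (13.9 to 33.2) of 80 mutant cells. *Plagl1* was detected in 23.5% (21.4 to 25.8) of 1449 control and 29.5% (27.2 to 31.8) of 1520 mutant cells of the retinal progenitor-like class, and *Ndn* in 71.3% (64.1 to 77.7) of 181 control and 73.7% (67.6 to 79.2) of 236 mutant cells of the retinal ganglion cell-like class. Before thinning, the shares in the control and the mutant were 89.6% and 87.8% for *Mest*, 86.1% and 79.7% for *H19*, 43.5% and 44.2% for *Meg3*, 25.9% and 31.8% for *Dlk1*, 53.9% and 57.1% for *Plagl1* and 97.8% and 99.2% for *Ndn* in the same classes. In red blood cell-like cells the thinned shares lay between 0% and 7.26% for the 9 members. Their UMIs were mostly globin: the 10 red blood cell markers summed to 852385 CPM in the control and 818799.8 CPM in the mutant, so these shares need not equal the background of other classes, and free RNA was not measured. Cells below that depth could not be thinned, 122 of the control and 74 of the mutant in the RPE-like class.

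Several members differed between clusters of the mesenchyme and 3 unnamed clusters. The 4 periocular mesenchyme-like clusters were led by *Nbl1*, by *Depdc1a*, by *Pgf* and by *Meox1*, and 3 unnamed clusters of ordinary depth were led by *Col9a3*, by *Osr2* with *Foxl2*, and by *Fmo1*. By marker list, the *Col9a3* cluster was closest to cartilage (3 of 6 markers up), the *Osr2* cluster to periocular mesenchyme (7 of 15) and the *Fmo1* cluster to pericytes (6 of 8), and all 3 stayed unnamed by the naming rule. *Dlk1* was at 659 CPM (624 to 697) in control and 619 CPM (588 to 651) in mutant cells of the *Osr2* cluster (134 and 170 cells), where it was among the 10 leading genes although clusters were formed without it. In the *Pgf* cluster, which also had *Aldh1a2* among its leading genes, *Dlk1* was at 39.3 and 31.3 CPM, which is 16.8-fold lower in the control and 19.8-fold lower in the mutant. *Meg3* had its extremes in the same pair of clusters, at 385 and 361 CPM in the *Osr2* cluster and 142 and 159 CPM in the *Pgf* cluster.

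*H19* ran the other way, with 485 and 403 CPM in the *Pgf* cluster and 221 and 176 CPM in the *Osr2* cluster. *Peg3* was highest in the *Col9a3* cluster, at 355 and 338 CPM, and lowest in the *Fmo1* cluster of the control (90.7 CPM) and the *Osr2* cluster of the mutant (90.7 CPM). The *Fmo1* cluster (140 and 152 cells) had the highest *Mest*, at 637 and 509 CPM, and the highest *Peg10*, at 69.5 CPM (58.4 to 82.2) and 30.8 CPM (23.7 to 39.2). *Ndn* and *Grb10* differed least among the 7 clusters, by at most 1.49-fold and 1.71-fold from the lowest to the highest.

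**Figure D2:**
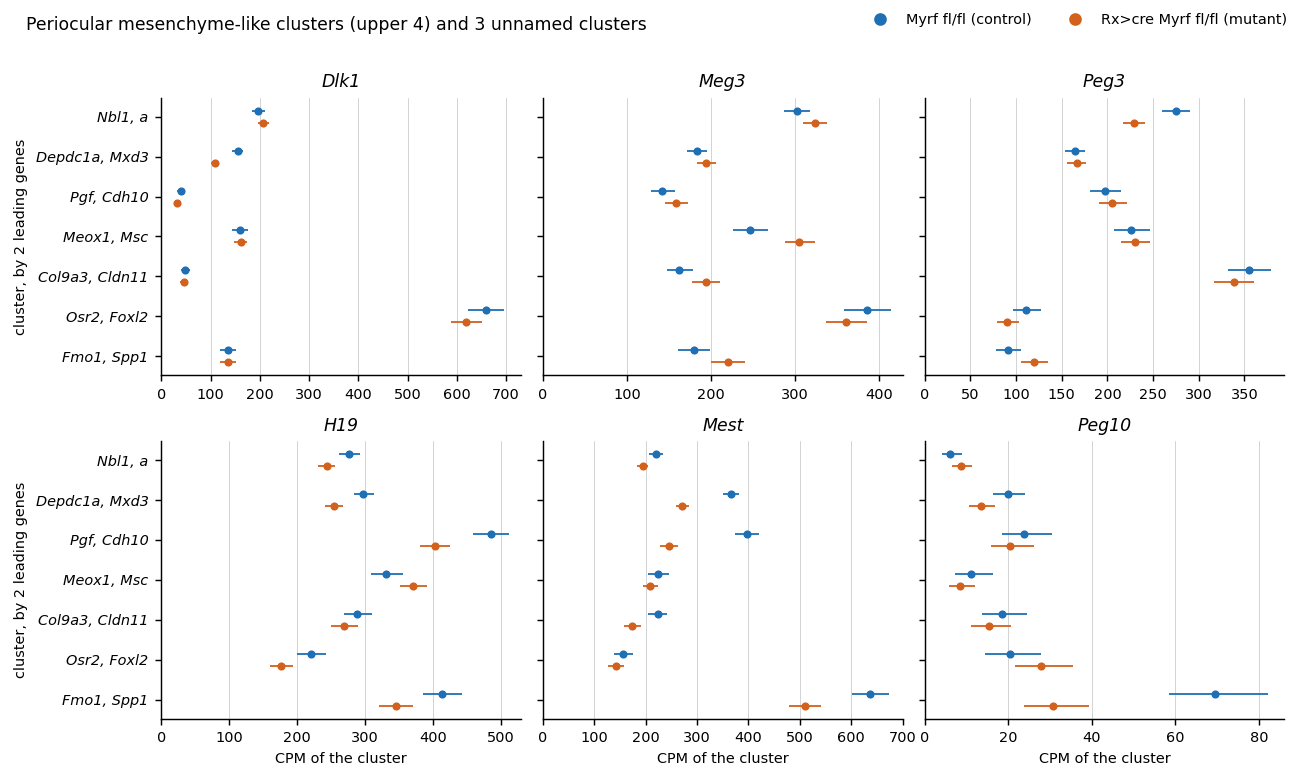
Level of 6 members in the 4 periocular mesenchyme-like clusters (upper rows) and 3 unnamed clusters (lower rows), each named by 2 leading genes, as CPM with 95% counting intervals for the control and mutant libraries. *Dlk1* is far higher in the *Osr2*, *Foxl2* cluster than in the other 6 clusters in both libraries.

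Among the 4 retinal progenitor-like clusters, *Plagl1* was at 138 and 156 CPM in the *Fgf15* cluster and 119 and 149 CPM in the *Vax2os* cluster, against 48.1 and 55.6 CPM in the *Hmmr* cluster and 64.9 and 66.0 CPM in the *Aldh1a1* cluster. *Mest* was at 599.6 and 549 CPM in the *Vax2os* cluster and 260.0 and 252 CPM in the *Hmmr* cluster. The *Hmmr* and *Aldh1a1* clusters were also the shallower pair, with medians of 4842.5 and 4148.5 UMIs per cell against 19593 and 14440 in the other pair, and the part of depth in these differences was not tested.

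Cycling cells, those with UMIs of at least 2 of 8 cell cycle genes after thinning to 3000 UMIs, were compared with the other cells of their class. *Mest* differed in opposite directions in the largest classes. In periocular mesenchyme-like cells it was higher in cycling than other cells, with 364 and 264 CPM (log2 ratio 0.47, 0.26 to 0.67) in the control and 279 and 216 CPM (log2 ratio 0.37, 0.16 to 0.57) in the mutant. In retinal progenitor-like cells it was lower in cycling cells, with 406 and 528 CPM (log2 ratio -0.38, -0.51 to -0.25) and 382 and 483 CPM (log2 ratio -0.34, -0.47 to -0.21). *Peg3* was lower in cycling mesenchyme, with 155 and 261 CPM (log2 ratio -0.74, -1.03 to -0.47) and 165 and 227 CPM (log2 ratio -0.45, -0.71 to -0.21), while in the progenitors its intervals span 0. *Grb10* was lower in cycling cells of both classes and libraries, by log2 ratios between -0.43 and -0.18, and *H19* was lower in cycling mesenchyme of both libraries (-0.23 and -0.28). *Plagl1* of retinal progenitor-like cells was at 87.2 and 102 CPM (log2 ratio -0.23, -0.52 to 0.06) in the control and 119 and 113 CPM (log2 ratio 0.07, -0.18 to 0.33) in the mutant, intervals that span 0. The clusters of each class were pooled for this comparison. *Hmmr*, one of the 8 cell cycle genes, led the progenitor-like cluster with the lowest *Mest* (260.0 and 252 CPM). The part of cluster make-up in these ratios was not tested.

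**Figure D3:**
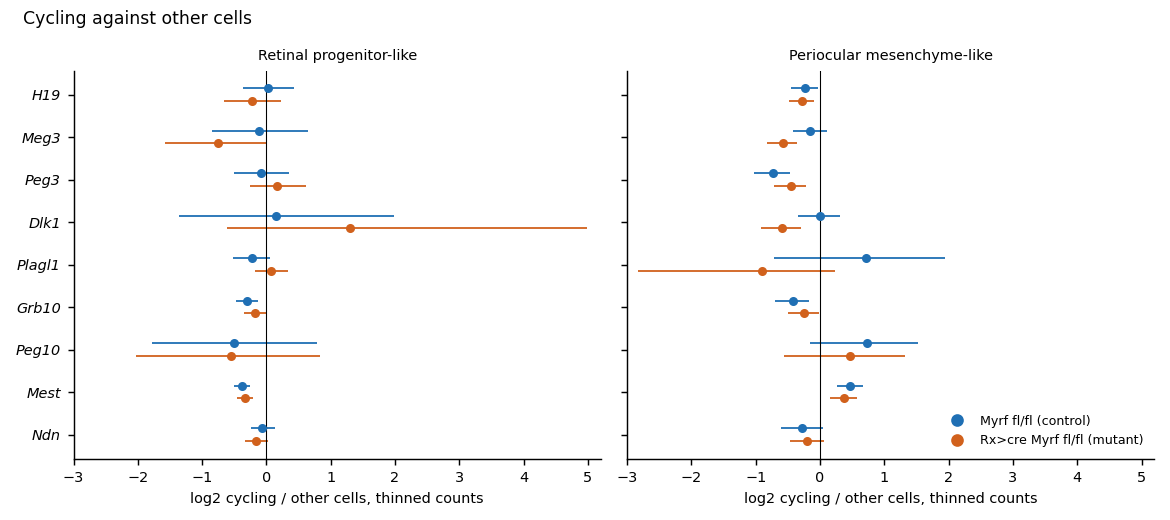
Log2 ratio of each member's level in cycling over other cells of the retinal progenitor-like and periocular mesenchyme-like classes, per library, with 95% counting intervals; the line marks equal levels. *Mest* lies below the line in progenitors and above it in mesenchyme in both libraries.

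The comparison of genotypes asks whether the loss of *Myrf* from the eye field lineage moved these transcripts. Most differences were small. Over the 14 classes, 85 of the 126 pairs of member and class had at least 50 UMIs over both libraries, the median size of their log2 ratio (mutant over control) was 0.27, and 15 pairs were past 1.5-fold, 7 lower and 8 higher in the mutant. Over all genes, 3.7% of 79961 such pairs were lower and 3.6% higher past that size. Of the 8 higher pairs, 4 were in red blood cell-like cells (*Meg3*, *Peg3*, *Mest* and *Ndn*), where 34.8% of 3168 genes were higher and 1.61% lower past 1.5-fold, so these 4 are not particular to the members. In the same class *H19*, *Dlk1* and *Grb10* had ratios of 0.11 (-0.23 to 0.48), 0.34 (-0.51 to 1.43) and 0.14 (-0.31 to 0.64).

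In RPE-like cells 8 members could be compared. *Plagl1* was the one past 1.5-fold, at 19.6 CPM in the control and 40.8 CPM in the mutant, on 41 and 61 UMIs, a log2 ratio of 1.05 (0.47 to 1.67). Among all 6916 genes compared in this class, 3.73% were higher and 7.33% lower in the mutant past 1.5-fold. *Mest* (0.35, 0.23 to 0.48), *H19* (0.44, 0.07 to 0.81) and *Dlk1* (0.37, 0.05 to 0.69) were higher within 1.5-fold, and *Peg3* was lower (-0.33, -0.63 to -0.04). *Meg3* (0.09, -0.10 to 0.28), *Grb10* (-0.01, -0.24 to 0.22) and *Ndn* (-0.14, -0.33 to 0.04) had intervals that span 0. The median log2 ratio was 0.22 over the 8 members and -0.03 over all genes compared.

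The *Plagl1* ratio of RPE-like cells rested on few cells. With cells above 20000 UMIs left out it was 0.38. In cells called female it was -0.06 (-2.39 to 1.61), on 9 and 4 UMIs, an interval that also holds the ratio of all cells. In cells called male it was 1.26 (0.47 to 2.17). Since *Plagl1* is a progenitor transcript, retinal markers were read in the same cells. The 10 retinal progenitor markers summed to 1130.4 CPM in the control and 881 CPM in the mutant, 9 of 10 lower in the mutant and none at 0. The 9 neurogenic precursor markers summed to 339 and 600.4 CPM, 5 of 9 higher and none at 0. The 10 red blood cell markers summed to 930.4 and 1389 CPM, 6 of 10 higher in the mutant. Their part in the *Plagl1* value was not tested.

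In retinal progenitor-like cells all 9 members were compared. *Peg10* was lower past 1.5-fold, at 6.80 and 4.10 CPM on 131 and 78 UMIs, a log2 ratio of -0.72 (-1.15 to -0.31), where 1.7% of 11530 genes were lower and 0.772% higher past that size. With cells above 20000 UMIs left out the ratio was -0.56, and it was -0.36 in cells called female and -1.11 in cells called male. *Plagl1*, for which this is the main class, was higher, with a log2 ratio of 0.24 (0.15 to 0.32), and *Mest* was lower, with -0.12 (-0.16 to -0.08). *H19* had -0.18 (-0.32 to -0.04) and *Grb10* -0.06 (-0.12 to 0.00). *Ndn* (0.02, -0.04 to 0.08), *Meg3* (0.03, -0.23 to 0.29) and *Peg3* (-0.04, -0.18 to 0.10) had intervals that span 0. Behind the pooled value of *Meg3*, the ratio was 0.48 (0.10 to 0.88) in cells called female and -0.67 (-1.19 to -0.18) in cells called male.

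No member passed 1.5-fold in periocular mesenchyme-like cells, where 1.98% of 11966 genes were lower and 1.14% higher past that size. The deep counts of this class gave narrow intervals. *Mest* was lower in the mutant (-0.41, -0.47 to -0.35), and so were *Grb10* (-0.20, -0.27 to -0.14), *H19* (-0.15, -0.20 to -0.09) and *Peg10* (-0.30, -0.57 to -0.03), while *Ndn* (0.26, 0.18 to 0.34) and *Meg3* (0.18, 0.11 to 0.24) were higher. *Dlk1* (-0.10, -0.18 to -0.02) and *Peg3* (-0.06, -0.12 to 0.01) lay closest to 0 among the abundant members, and *Plagl1* (0.01, -0.32 to 0.34) had few UMIs.

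In endothelial-like cells 8 members were compared. *Meg3* was lower past 1.5-fold, at 39.9 and 26.1 CPM on 72 and 47 UMIs (-0.60, -1.18 to -0.06), where 4.49% of 6142 genes were lower and 1.79% higher past that size. The 15 periocular mesenchyme markers, whose class is rich in *Meg3*, summed to 196 CPM in the control and 71.1 CPM in the mutant endothelial-like cells, 11 of 15 lower and none at 0, and the 10 red blood cell markers to 364 and 1119 CPM, 8 of 10 higher and *Hemgn* at 0. Their part in the *Meg3* value was not tested. The *Meg3* ratio was -0.53 with doublets kept, and it was 0.41 in cells called female and -0.78 in cells called male. *H19* was lower, with a log2 ratio of -0.57 (-0.71 to -0.44), on 1169 and 784 UMIs. One control cell held 14.5% of the control UMIs of *H19*, and without the top cell of each library the log2 ratio was -0.41. *Mest* (-0.01, -0.09 to 0.06) and *Peg10* (0.18, -0.07 to 0.43), both, like *H19*, highest in this class, had intervals that span 0.

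**Figure D4:**
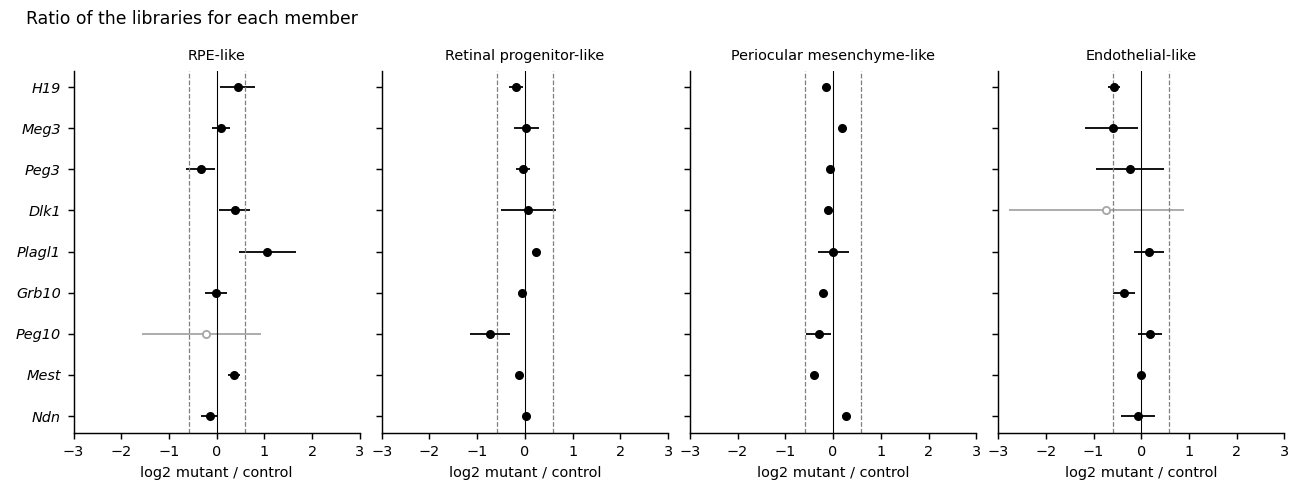
Log2 ratio of the mutant over the control library for each member in 4 cell classes, with 95% counting intervals; dashed lines mark 1.5-fold, and open grey points are members with under 50 UMIs over both libraries. Filled points past the dashed lines are *Plagl1* in RPE-like, *Peg10* in retinal progenitor-like and *Meg3* in endothelial-like cells.

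*Grb10* had at least 50 UMIs in all 14 classes, more than any other member, and was lower in the mutant in 12 of them, with the counting interval below 0 in 8. Of 1582 genes with at least 50 UMIs in every class, 2.97% were lower in as many classes or more, and 1.2% had the interval below 0 in as many or more. Retinal ganglion cell-like cells had 160.1 and 116 CPM (-0.47, -0.66 to -0.28), neurogenic precursor-like cells 332 and 263 CPM (-0.34, -0.47 to -0.21), endothelial-like cells 189.7 and 147 CPM (-0.36, -0.60 to -0.13) and macrophage-like cells 42.3 and 19.7 CPM (-1.08, -1.72 to -0.51). Markers of other classes were also lower in the mutant macrophage-like cells. The retinal progenitor markers summed to 315 and 209.9 CPM (9 of 10 lower), the neurogenic precursor markers to 318 and 186 CPM (8 of 9) and the periocular mesenchyme markers to 149 and 83.9 CPM (12 of 15), with none at 0 in both libraries. In endothelial-like cells 9 of 10, 8 of 9 and 11 of 15 of these markers were lower, the last list summing to 196 and 71.1 CPM. The 12 retinal ganglion cell markers went the other way in endothelial-like cells, at 374 and 433 CPM, with 12 of 12 higher in the mutant. The red blood cell markers were higher in the mutant, at 394 and 1297 CPM in macrophage-like cells. The part of such RNA in the *Grb10* values was not tested. Endothelial-like and macrophage-like cells are outside the *Rx* lineage, and in RPE-like cells the ratio was -0.01 (-0.24 to 0.22). The classes share the same libraries, so 14 classes are not 14 repeats, and the library and the genotype cannot be told apart.

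*Meg3* in amacrine or horizontal-like cells had the largest ratio among the 85 pairs compared, at 44.4 and 125 CPM on 27 and 86 UMIs in 55 and 66 cells (1.46, 0.85 to 2.17). One control cell held 33.3% of the control UMIs, and without the top cell of each library the ratio was 1.89. It was 2.65 in cells called female and 0.76 in cells called male. *H19* in retinal ganglion cell-like cells was lower, at 18.6 and 9.94 CPM (-0.89, -1.54 to -0.28), where red blood cell-like cells had 21.5 and 23.4 CPM.

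Both libraries held cells with UMIs of Y-linked genes and cells with UMIs of *Xist*, so each pool had embryos of both sexes. There were 1964 female and 1138 male cells among the 5468 kept in the control, and 1559 and 1764 among the 6300 kept in the mutant. The remaining cells were not called. In RPE-like cells 44 female and 65 male of 255 control cells were called, and 15 and 45 of 154 mutant cells. A call can rest on 1 UMI, and the rate of wrong calls was not measured. Cells called female (UMIs of *Xist*, none of 4 Y-linked genes) and male (the reverse) came from different embryos where the calls are right. Their differences give a view of spread within a library that also holds counting error. Over 34 pairs of member and class in the RPE-like, retinal progenitor-like, periocular mesenchyme-like and endothelial-like cells, the female to male difference was larger than the difference between genotypes in at least 1 library for 27 pairs and in both libraries for 9. The genotype ratio had the same sign in female and male cells in 17 of the 34. A female to male difference rests on fewer cells than the pooled genotype difference, down to 15 mutant female RPE-like cells. Counting error alone can thus make it the larger, most readily where the genotype ratio is small. These counts therefore do not measure spread between embryos. In endothelial-like cells *H19* was at 379 CPM (333 to 429.5) in 32 female and 814 CPM (743 to 889.6) in 28 male cells of the control, and at 466 CPM (387 to 555) in 19 female and 404 CPM (362 to 449) in 39 male cells of the mutant. The interval of the control male cells lay above the other 3.

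*Plagl1* of RPE-like cells was at 18.5 CPM (8.48 to 35.2) and 19.5 CPM (11.8 to 30.5) in female and male control cells, at 15.8 CPM (4.30 to 40.4) in 15 mutant female cells and at 47.9 CPM (34.1 to 65.5) in 45 mutant male cells. *Meg3* of periocular mesenchyme-like cells ran from 213 CPM (204 to 224) to 284 CPM (271 to 297) in female cells but was at 242 CPM (228 to 256) and 243 CPM (233 to 253) in male cells. *Dlk1* of RPE-like cells differed in sign, with a genotype log2 ratio of -0.67 (-1.61 to 0.08) in female and 0.86 (0.40 to 1.35) in male cells. *Mest* was lower in the mutant mesenchyme in both, with -0.55 (-0.65 to -0.46) in female and -0.18 (-0.28 to -0.07) in male cells, and its female and male levels in the control also differed. *Grb10* had ratios of -0.20 (-0.30 to -0.09) in female and -0.20 (-0.31 to -0.08) in male mesenchyme, and *Ndn* of 0.21 (0.09 to 0.33) and 0.25 (0.12 to 0.38). For both, these were larger than the female to male difference within either library.

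**Figure D5:**
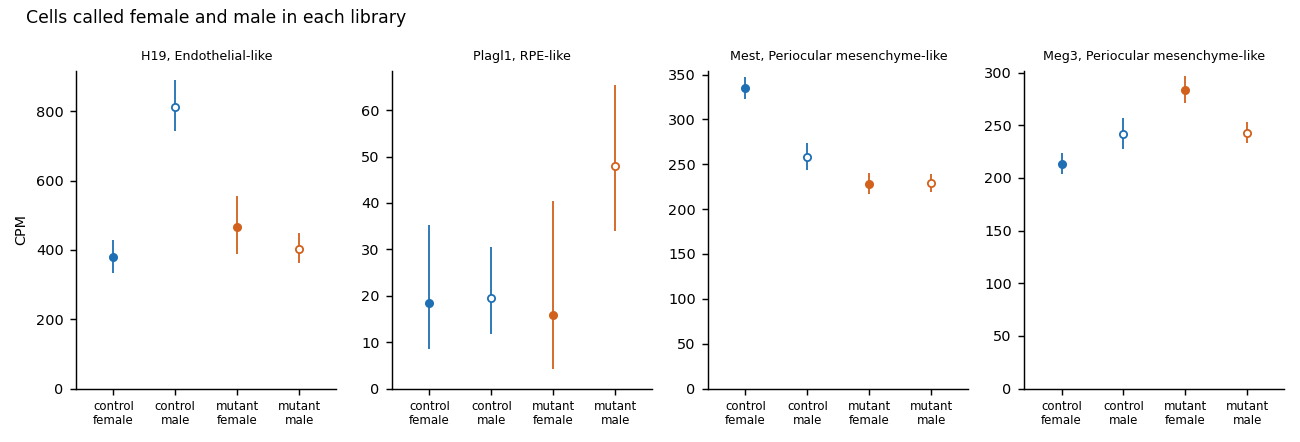
CPM of 4 members in cells called female (filled) and male (open) of the control and mutant libraries, with 95% counting intervals, on linear axes from 0. The highest point is control male for *H19* in endothelial-like cells, mutant male for *Plagl1* in RPE-like cells, control female for *Mest* and mutant female for *Meg3* in periocular mesenchyme-like cells.

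Other imprinted genes were read from a list of 47, of which 45 were among the features. Of these, 31 had at least 100 UMIs in each library, and 22 had the same highest class in both. Highest classes here and below are among those of at least 30 cells in both libraries. The amacrine or horizontal-like class was the highest for 6, among them *Nnat*, a small membrane protein of developing neurons (2734 and 4008 CPM), and *Snrpn*, a splicing protein (278 and 280.0 CPM), whose exons overlap other genes of the feature list on the same strand, so that its level is uncertain. The periocular mesenchyme-like class was the highest for 5, among them *Cdkn1c*, an inhibitor of cyclin-dependent kinases (1648 and 1824 CPM), and *Dcn*, a matrix proteoglycan (111 and 134 CPM). RPE-like, endothelial-like and retinal ganglion cell-like cells were each the highest for 3, and retinal progenitor-like cells for 2.

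Genes that share a locus with a member did not always share its pattern. *Sgce* and *Asb4* lie in the domain of *Peg10*. *Asb4* was highest in endothelial-like cells like *Peg10*, at 124 and 122 CPM, whereas *Sgce* was highest in RPE-like cells, at 43.9 and 54.2 CPM. *Usp29*, beside *Peg3*, was highest in periocular mesenchyme-like cells like *Peg3*, at 12 and 14.3 CPM, and *Zim1* had 81 and 93 UMIs in all named classes. *Dio3*, at the far end of the *Dlk1* domain, was highest in retinal progenitor-like cells, at 24.0 and 25.5 CPM, where *Dlk1* was at 2.75 and 2.89 CPM, and *Rtl1* of that domain had 9 UMIs in each library. *Mirg*, a noncoding RNA downstream of *Meg3*, had its highest levels in periocular mesenchyme-like (7.50 CPM, control) and RPE-like cells (8.69 CPM, mutant), the classes richest in *Meg3*.

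Near *Ndn*, *Mkrn3* and *Snrpn* were highest in amacrine or horizontal-like cells, *Mkrn3* at 62.5 and 53.7 CPM, *Ube3a* in retinal ganglion cell-like cells, at 201 and 213 CPM, and *Peg12* in retinal progenitor-like cells, at 41.1 and 40.8 CPM. *Magel2* had 55 and 83 UMIs. *Copg2*, which overlaps *Mest* on the other strand, and *Ppp1r9a* had different highest classes in the libraries, and *Klf14* had 4 and 7 UMIs. *Igf2*, the growth factor beside *H19*, was counted at 25.7 and 18.0 CPM in periocular mesenchyme-like cells, its highest class. Its exons overlap another gene of the feature list on the same strand, so its level is uncertain. *Rian* was not analysed here.

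Between genotypes the other imprinted genes did not share one direction. In RPE-like cells 11 of 19 compared were lower and 8 higher in the mutant (median log2 ratio -0.02), beside 54.1% lower among all genes compared, and the largest differences were in *Dcn* (-0.59, -0.95 to -0.26), *Nnat* (-0.55, -0.88 to -0.24), *Zdbf2* (-0.55, -1.40 to 0.20), *Snrpn* (-0.49, -0.81 to -0.19) and *Blcap* (-0.45, -0.94 to 0.00), all lower. In retinal progenitor-like cells 12 of 28 were lower and 16 higher, beside 56.6% of all genes lower, led by *Igf2* (-0.77, -1.46 to -0.14) and *Ddc* (0.53, -0.03 to 1.12). In periocular mesenchyme-like cells 15 of 31 were lower and 16 higher, beside 58.5% of all genes lower, led by *Asb4* (-0.95, -1.79 to -0.17) and *Igf2* (-0.51, -0.72 to -0.30). In endothelial-like cells 14 of 17 were lower and 3 higher, beside 57.7% lower among all genes compared. With cells above 20000 UMIs left out, fewer genes could be compared, and 4 were lower and 4 higher. The share of all genes lower at that limit is not given here. The class was led by *Nnat* (-0.95, -1.42 to -0.52), *Igf2* (-0.61, -1.52 to 0.23) and *Igf2r* (-0.56, -1.02 to -0.12), while *Gnas*, which encodes the stimulatory G protein subunit, was higher (0.30, 0.26 to 0.34). *Igf2* had a lower level in the mutant in each of the 3 classes where it was compared, with an interval that spans 0 in endothelial-like cells.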

How the data were processed

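Single cells of e13.5 mouse eye cups were measured with the 10X Genomics 3′ platform in 2 libraries, 1 per genotype. The authors deposited UMI counts per gene and barcode, without normalization; the submitters' processing notes name Cell Ranger 7.1.0, Seurat 4.1.1 and mm10, while the header of the count tables gives another software version, and whether intronic reads were counted is not given in the sources used here. The members and gene lists were chosen with earlier results of these data known.

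Cells needed at least 200 detected genes and at most 15% mitochondrial UMIs. Doublets were removed by Scrublet (scanpy 1.11.5, rate set to 5%), which marked 0.924% of control and 1.16% of mutant cells. Cells were integrated and clustered in Seurat 5.3.0 (R 4.3.3) at resolution 0.8 with 30 components and 1985 of 2000 variable features, imprinted genes left out. Naming thresholds were chosen with the clusters in view. UMIs were summed per class and library as CPM. Log2 ratios added 1 UMI to each sum, and members were compared from 50 UMIs over both libraries. Intervals used scipy 1.17.1. Those of the log2 ratios were tried on simulated Poisson counts, the model they assume, without spread between cells or embryos. That trial therefore cannot show how they hold under such spread. The depth was 63483835 and 75228861 UMIs, with medians of 10083 and 10638 per barcode. The authors' methods also state an upper limit of 2000 UMIs per cell, tried here as an alternative because it leaves 1190 and 1096 cells.

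Named were the 9 members, their imprinted neighbours, the 3 genes most like each member, *Myrf*, and the 5 other imprinted genes with the largest log2 ratios per class. Alternatives covered doublets, depth and mitochondrial limits, clustering, denominators, the sexes, the minimum of UMIs, added counts, means of log values, thinning and Spearman's rho. Leaving out the cell with the most UMIs was added after seeing the data.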

Additional observations from a re-analysis of the deposited data

How the results depend on the processing

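No paired analysis was possible because the labels give no replicate numbers and each genotype has 1 library. Among classes of at least 30 cells in both libraries, all 9 members had the same highest class in both under each of the 8 alternatives tried for this count. Of 663 log2 ratios recomputed, 567 stayed within the counting interval and 96 moved beyond it. The sign was opposite in 72, of which 44 were in cells of 1 sex or below 2000 UMIs. The counting interval as reported excluded 0 for 20 of the 72, 1 of them outside those subsets, and the ratio was past 1.5-fold for 6. Of these 6, with cells above 2000 UMIs left out, *Meg3* had 0.17 in endothelial-like and 0.58 in neurogenic precursor-like cells, and in female cells alone *Meg3* had 0.41 and 0.17 there, and *Plagl1* -0.06 in RPE-like and -0.52 in amacrine or horizontal-like cells. The cause was not tested. Members lower past 1.5-fold in endothelial-like cells (1 as reported) became 0 with doublets kept, without mitochondrial, globin and ribosomal genes in the total, or in female cells, and 2 at or below 20000 UMIs or in male cells. Members higher in RPE-like cells (1) became 0 below 20000 or 2000 UMIs or at a mitochondrial limit of 5%, and 2 in male cells, and members lower there (0) became 1 in female and 1 in male cells. Members lower in retinal progenitor-like cells (1) became 0 below 20000 UMIs or in female cells and 2 in male cells. Below 2000 UMIs, where fewer cells leave fewer genes to compare, other imprinted genes came to 2 lower and 0 higher in RPE-like, 2 and 1 in retinal progenitor-like, and 1 and 1 in endothelial-like cells. In endothelial-like cells the count of those lower became 4 (beside 4 higher) below 20000 UMIs, 1 in female and 8 in male cells, and of those higher 6 without mitochondrial, globin and ribosomal genes and 5 in female cells. In RPE-like cells the counts were 6 lower and 5 higher in female cells, and 4 higher in male cells. The shares over all genes are not given for these alternatives. The changed counts of members and of other imprinted genes are therefore not results about those genes. Of 54 thinned shares, 48 moved with the depth of thinning. Of 197 CPM values, 94 moved beyond their counting interval. Under Spearman's rho, 2 of the 3 most like genes were shared for *Meg3* and *Mest*, and at most 1 for the other 7 members. The mean of log values per cell kept the sign of the ratio in 47 of 52 pairs.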

Other observations

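Of the UMIs of a member counted in named classes, the share that a class held differed from its share of named cells. Unnamed clusters were left out of these shares. Among them were the *Osr2* cluster, with *Dlk1* at 659 and 619 CPM, and the *Col9a3* cluster, with *Peg3* at 355 and 338 CPM. The shares below are therefore not shares of all UMIs of a member. Periocular mesenchyme-like cells were 25.7% of named cells in the control and 29.5% in the mutant, and held 86.9% and 86.9% of the *Dlk1* UMIs, 71.4% and 79.5% of those of *Meg3*, and 66.8% and 72.4% of those of *Peg3*. Retinal progenitor-like cells were 39.9% and 35.0% of named cells and held 80.5% and 78.3% of the *Plagl1* UMIs. Endothelial-like cells were 3.58% and 3.09% of named cells and held 36.3% and 41.7% of the *Peg10* UMIs. Periocular mesenchyme-like cells held 33.1% and 35.0% of the *Peg10* UMIs, and retinal progenitor-like cells 19.2% and 11.6%.

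Melanocyte-like cells (34 control and 25 mutant), pigmented like the RPE but derived from neural crest, had little of the members that were high in RPE-like cells. *Meg3* was at 7.08 and 12.4 CPM, *Mest* at 31.9 and 20.2 CPM, *Peg3* at 15.3 and 10.9 CPM and *Ndn* at 76.7 and 85.4 CPM. *Dlk1* was at 2.36 CPM in the control and not counted in the mutant, which allows up to 3 UMIs or 4.66 CPM. *Grb10* was at 230.2 and 200.3 CPM, above its RPE-like level in both libraries.

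In red blood cell-like cells, where 4 members were higher past 1.5-fold in the mutant library, markers of other classes were higher too. *Meg3* had 10 and 47 UMIs (0.85, -0.05 to 2.10), *Peg3* 19 and 85 (0.82, 0.15 to 1.68), *Ndn* 20 and 87 (0.79, 0.13 to 1.62) and *Mest* 45 and 173 (0.64, 0.18 to 1.17). The 12 retinal ganglion cell markers summed to 14.2 and 33.4 CPM (12 of 12 higher), the 9 neurogenic precursor markers to 123 and 206 CPM (7 higher) and the 15 periocular mesenchyme markers to 41.2 and 56.2 CPM (11 higher). Their part in the values was not tested.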
